A study of Mus musculus with 6 samples.

Results

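The set described here comprised 58 genes of DNA replication and cell division, named by symbol for licensing of replication origins, S phase and mitosis, and all 58 were found among the 22611 genes of the expression table. Of these, 22 were S-phase genes and 36 were mitotic genes. RNA-seq had been performed on the duodenal epithelium of 3 WT mice and 3 *Esrra*-/- littermates (labelled ESRRAKO), with 1 library per mouse, to find the transcripts that depend on ESRRA, an orphan nuclear receptor that regulates genes of mitochondrial metabolism. *Esrra*-/- is a germline null allele, so the mutation was present in every tissue and not in the intestine alone. All 6 mice had received high-fat diet for about 8 weeks, both sexes were used in the germline experiments, and the age of these mice is not given in the sources used here. Epithelium was released from the opened duodenum with EDTA. The protocol in the labels mentions no separation of crypts from villi, and the methods of the study allow for either way of collecting without saying which was used for these libraries. Values are FPKM, the number of sequenced fragments scaled by transcript length and library size.

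The villus epithelium is renewed from the crypts, where stem cells and transit-amplifying cells divide, whereas villus enterocytes have left the cell cycle. A cell licenses each replication origin by loading the ring-shaped MCM2 to MCM7 helicase, fires the origins in S phase when cyclin E and CDK2 are active, and enters mitosis when CDK1 with cyclin A or cyclin B is activated. Transcription of the S-phase genes is classically driven by E2F factors, and that of the mitotic genes by complexes that contain MYBL2 or FOXM1 and reach the promoter through the cell-cycle genes homology region, a short element near the start site. Many of these promoters also hold CCAAT boxes, which NF-Y binds.

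Words of these kinds were looked for in the promoters, some of which are shown here for genes on which the expression results turn. RefSeq windows (GRCm38.p6) of 250 bases before to 50 bases after the start were found for 46 of the 58 genes, 17 S-phase and 29 mitotic, which gave 50 windows. The stretches below are the 150 bases before the start, written 5′ to 3′ on the strand of the gene, for 3 mitotic and 2 S-phase genes that were lower in *Esrra*-/- and for *Prc1*, the 1 gene that was higher. Capitals mark CCAAT boxes on either strand, E2F-like words, and matches to the homology region. That region was read as TTTGAA on either strand, with TTTAAA, which is its own reverse complement, counted separately.
*Ccnb2*, chr9:70421555-70421704, minus strand: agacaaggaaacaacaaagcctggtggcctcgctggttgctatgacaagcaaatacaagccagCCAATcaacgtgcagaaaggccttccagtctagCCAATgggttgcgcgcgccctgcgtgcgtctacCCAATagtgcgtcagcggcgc
*Cdk1*, chr10:69352913-69353062, minus strand: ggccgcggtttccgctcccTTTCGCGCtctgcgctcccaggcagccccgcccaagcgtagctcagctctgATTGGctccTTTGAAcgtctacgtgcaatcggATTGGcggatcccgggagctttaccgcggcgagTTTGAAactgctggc
*Bub1b*, chr2:118598061-118598210, plus strand: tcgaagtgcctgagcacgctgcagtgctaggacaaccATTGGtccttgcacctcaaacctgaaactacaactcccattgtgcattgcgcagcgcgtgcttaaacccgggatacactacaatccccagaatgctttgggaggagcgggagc
*Rrm2*, chr12:24708104-24708253, plus strand: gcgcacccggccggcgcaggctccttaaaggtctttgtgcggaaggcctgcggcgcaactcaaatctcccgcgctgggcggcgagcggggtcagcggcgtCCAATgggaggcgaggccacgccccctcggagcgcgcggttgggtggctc
*Rrm1*, chr7:102441545-102441694, plus strand: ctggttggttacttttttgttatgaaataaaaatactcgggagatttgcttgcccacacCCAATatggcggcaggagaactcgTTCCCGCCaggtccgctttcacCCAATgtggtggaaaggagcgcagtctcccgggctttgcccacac
*Prc1*, chr7:80294301-80294450, plus strand: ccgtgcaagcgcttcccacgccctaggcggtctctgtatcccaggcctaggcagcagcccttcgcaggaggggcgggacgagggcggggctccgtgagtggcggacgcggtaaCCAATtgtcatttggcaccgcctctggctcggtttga

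*Cdk1* carried 2 TTTGAA words, with first bases 71 and 15 bases before the start, beside 2 CCAAT boxes read on the other strand (ATTGG) and the E2F-like word TTTCGCGC. *Ccnb2* carried 3 CCAAT boxes at 87, 54 and 21 bases before the start, and its TTTGAA lay just past the printed stretch, from base 5 after the start. Also past the printed stretches lay a TTTGAA of *Bub1b*, from base 41 after the start, and a TTTAAA of *Rrm2*, from base 1. The E2F-like word TTCCCGCC stood 67 bases before the start of *Rrm1*. The promoter of *Prc1* held a CCAAT box and, in its whole window, a TTTGAA, as the windows of most mitotic genes did.

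Over all windows, TTTGAA was found in 75% of the 32 mitotic windows and 5.56% of the 18 S-phase windows, against 17.9% of 32851 promoter windows. The E2F-like words (the word TTTCCCGC, or the word TTTGGCGC, or the word TTTCGCGC, or the word TTCCCGCC, which can overlap the first, or the word TTGGCGCC, each on both strands) were in 6.25% of mitotic and 55.6% of S-phase windows, against 4.04% of all windows. CCAAT was frequent in both, at 81.2% of mitotic and 66.7% of S-phase windows against 37.4% of all. TTTAAA was found in 25% of mitotic, 16.7% of S-phase and 13.2% of all windows. The word AAGGTCA, the short site that ESRRA recognises, was in 0 of the 50 windows of the set and in 4.72% of all windows. These are matches of letters in a short window, and *Mcm7*, *Bub3*, *Ect2* and *Prc1* contributed 2 neighbouring windows each.

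*Esrra* itself was measured at 49.4, 73.5 and 104 FPKM in the WT libraries and at 10.4, 9.42 and 8.72 FPKM in the *Esrra*-/- libraries (in each list of values here, replicates 1, 2 and 3 in that order), and the groups did not overlap. *Esrra* transcript was thus reduced but still measured in every *Esrra*-/- library, and a value per gene does not show which part of the gene it came from. Its log2 fold change was −2.92 ± 0.26 (SE, n = 3 per group; limma with Benjamini-Hochberg adjustment, adjusted p = 0.0215). The libraries WT replicate 3 and *Esrra*-/- replicate 3 held almost no transcripts of 4 Y-linked genes, such as *Eif2s3y* and *Kdm5d* (summed 0.0487 and 0.222 FPKM, against 27.3 to 46.7 FPKM in the other 4), so each genotype had 1 such library. FPKM values carry no depth.

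Most genes of the replication and mitosis set had a lower mean level in *Esrra*-/- than in WT epithelium, and a minority passed the test singly. The log2 fold change was negative for 56 of the 58 genes, against 45.7% of the 10596 genes tested, and its median was −0.52 against 0.03 over all genes tested. Summed over the set, 591, 722 and 582 FPKM were measured in WT and 419, 562 and 408 FPKM in *Esrra*-/-, or 632 ± 78.7 and 463 ± 85.6 FPKM (mean ± SD, n = 3). All *Esrra*-/- sums were below all WT sums, but *Esrra*-/- replicate 2 lay closer to WT replicates 1 and 3 than to the other *Esrra*-/- libraries.

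Most of the genes rose and fell together between libraries, so their common direction is not 58 separate observations. They were also chosen with earlier results of these data known. Each gene was tested singly. A gene was called where limma on log2(FPKM + 0.1) gave an unadjusted p under 0.05 together with a difference of more than 0.58 on the log2 scale, which are the cut-offs used in the study. By this rule 12 of the 58 genes (20.7%) were called lower, where 3.28% of all genes tested were called lower. These were the S-phase genes *Mcm7*, *Prim1*, *Rrm1*, *Rrm2* and *Ccne2* and the mitotic genes *Ccnb2*, *Cdk1*, *Pbk*, *Melk*, *Bub1b*, *Mad2l1* and *Nusap1*. *Prc1* was the 1 gene called higher, where 1.35% of all genes tested were. At the unadjusted p alone, 25 genes (43.1%) were lower, against 6.49% of all genes tested. The genotypes did not overlap, with *Esrra*-/- lower, for 17 genes (29.3%), against 9.14% of all genes tested. After Benjamini-Hochberg adjustment over all genes tested, 0 of the 58 genes were below 0.05 (0.0378% of all genes tested were), and the smallest adjusted p of the set, that of *Pbk*, was 0.26 with limma.

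Single libraries weighed heavily on these counts. The 12 genes called lower became 3 without WT replicate 2, 4 without *Esrra*-/- replicate 1 and 3 without *Esrra*-/- replicate 3. There were 14 without WT replicate 1, 24 without WT replicate 3 and 36 without *Esrra*-/- replicate 2. Of all genes tested, 2.65%, 2.38%, 3.16%, 3.56%, 3.78% and 5.05% were called lower in these fits, in that order. *Rrm2* and *Pbk* were called lower in each of these 6 fits, and *Ccnb2* in all but the one without *Esrra*-/- replicate 1. The direction was steadier, with a negative log2 fold change in all 6 fits for 54 of the 58 genes.

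**Figure D1:**
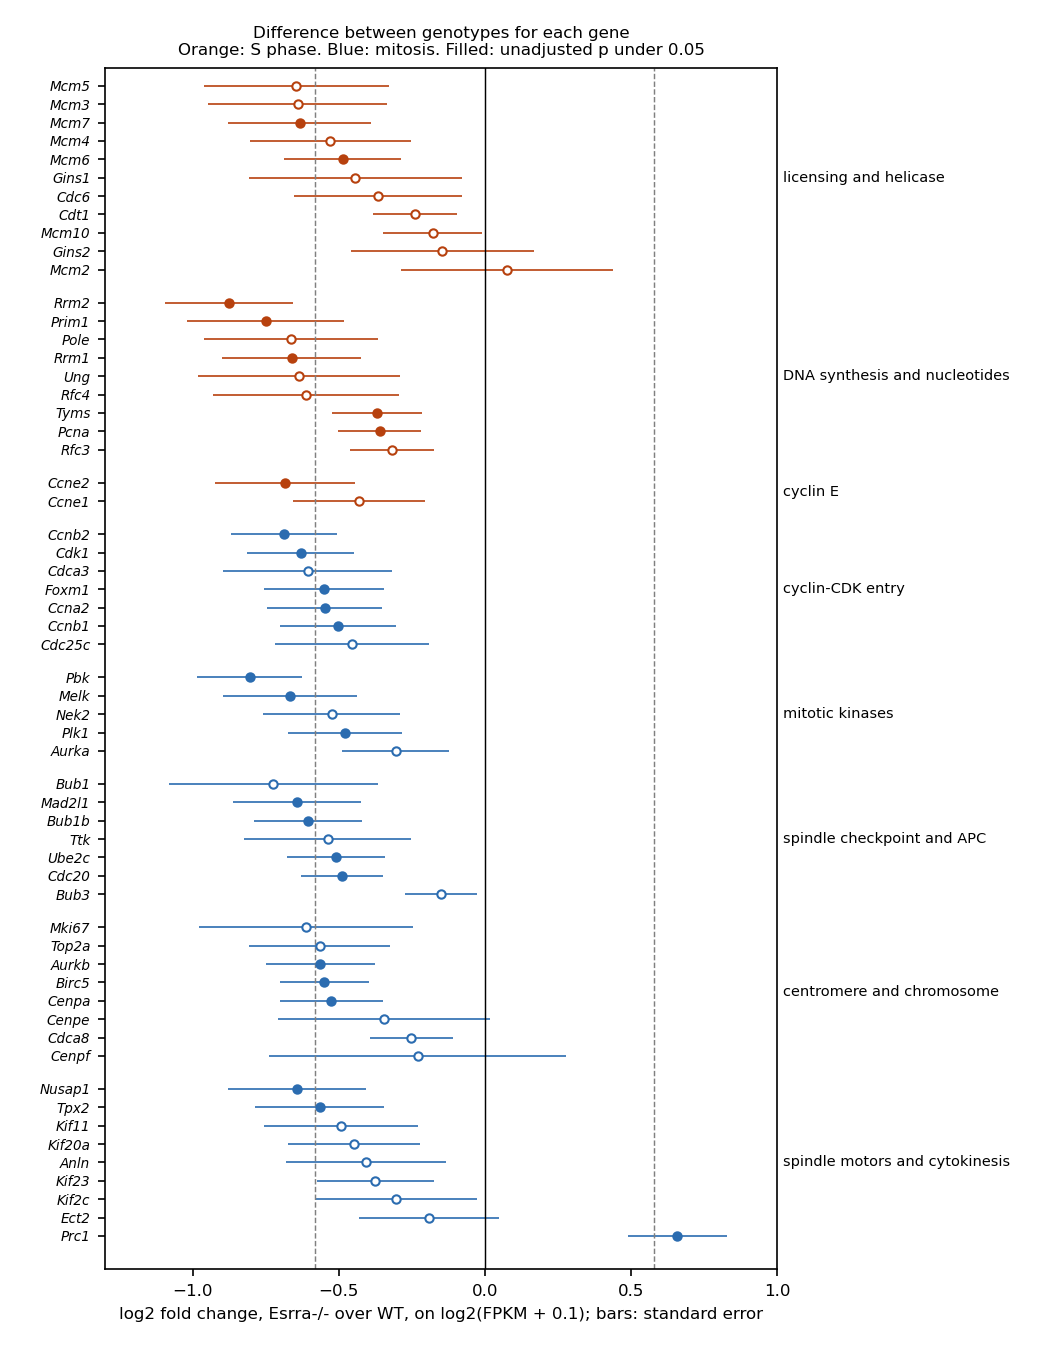
Log2 fold change of the 58 genes in *Esrra*-/- over WT on log2(FPKM + 0.1), ordered within each role, with standard errors as bars (n = 3 per group). Orange points are S-phase genes and blue points mitotic genes, filled where the unadjusted limma p is under 0.05, and the dashed lines stand at −0.58 and 0.58. Of the 58 points, 56 lie left of 0, with *Mcm2* and *Prc1* to the right.

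The licensing and helicase genes had a median log2 fold change of −0.44, with 10 of 11 negative and 1 called lower (9.09%, against 3.28% of all genes tested). All *Esrra*-/- values were below all WT values for 0 of the 11, against 9.14% of all genes tested. These shares of all genes tested, with 6.49% lower at the unadjusted p, also stand beside the counts of the groups below. *Mcm7*, a subunit of the helicase ring, was at 12.4, 16.2 and 9.44 FPKM in WT and at 6.80, 10.5 and 7.03 FPKM in *Esrra*-/- (log2 fold change −0.63 ± 0.24, SE; limma, adjusted p = 0.42). Its groups overlapped through *Esrra*-/- replicate 2, which exceeded WT replicate 3. Exons of *Mcm7* also overlap *Ap4m1* and *Cops6* on the opposite strand and the microRNA genes *Mir25* and *Mir93*, so its fragments cannot be assigned with certainty.

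*Mcm6*, the most abundant licensing gene per length, was at 14.6, 16.9 and 11.7 FPKM in WT and at 9.25, 13.0 and 8.73 FPKM in *Esrra*-/- (−0.49 ± 0.20; limma, adjusted p = 0.44), below the fold threshold. *Mcm3*, *Mcm4* and *Mcm5* had log2 fold changes of −0.64, −0.53 and −0.64 that did not pass the test. Their standard errors, 0.27 to 0.32, were above the median of 0.19 over all genes tested. In each of these 3 genes *Esrra*-/- replicate 2 exceeded WT replicate 3, while *Esrra*-/- replicates 1 and 3 lay below every WT library.

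*Mcm2* departed from the rest of the ring. It was at 9.87, 9.18 and 10.9 FPKM in WT and at 17.2, 11.8 and 5.68 FPKM in *Esrra*-/-, with the highest and the lowest of the 6 values both in *Esrra*-/- (0.08 ± 0.36; limma, adjusted p = 0.95). Its sign turned with the libraries, to −0.28 without *Esrra*-/- replicate 1. The loading factors *Cdc6* and *Cdt1* had log2 fold changes of −0.37 and −0.24, and *Mcm10*, which acts as origins fire, had −0.18. Of the GINS subunits, which complete the active helicase, *Gins1* was at −0.44 and *Gins2* at −0.15. None of these 5 passed the test. *Gins2* ordered the libraries differently from the other genes, with its highest values in WT replicate 3 (12.4 FPKM) and *Esrra*-/- replicate 3 (9.85 FPKM), and an exon of *Gins2* overlaps *Gse1* on the opposite strand.

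For the genes of DNA synthesis and nucleotide supply, 9 of 9 log2 fold changes were negative, with a median of −0.64, 5 were lower at the unadjusted p and 3 were called lower. *Rrm2*, the S-phase subunit of ribonucleotide reductase, which makes deoxyribonucleotides, had the most negative log2 fold change of the set. It was at 8.83, 10.0 and 8.22 FPKM in WT and at 4.66, 6.68 and 3.69 FPKM in *Esrra*-/-, without overlap (−0.87 ± 0.22; limma, adjusted p = 0.29). *Rrm1*, the other subunit, was at 7.60, 9.42 and 5.92 FPKM in WT and at 4.89, 6.01 and 3.57 FPKM in *Esrra*-/- (−0.66 ± 0.24; limma, adjusted p = 0.40). *Rrm1* thus overlapped narrowly, between *Esrra*-/- replicate 2 and WT replicate 3.

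*Prim1*, the catalytic subunit of the primase that starts each new strand, was at 5.23, 7.63 and 5.17 FPKM in WT and at 3.42, 4.89 and 2.496 FPKM in *Esrra*-/-, without overlap (−0.75 ± 0.27; limma, adjusted p = 0.39). *Pcna*, the sliding clamp of the replicative polymerases and the most abundant S-phase gene, was at 48.4, 58.2 and 58.6 FPKM in WT and at 39.8, 47.4 and 41.3 FPKM in *Esrra*-/- (−0.36 ± 0.14; limma, adjusted p = 0.43). Its groups did not overlap, yet the change was smaller than that of *Rrm2* and *Prim1* and under the fold threshold. *Tyms*, thymidylate synthase, behaved like *Pcna* at −0.37. The polymerase gene *Pole* (−0.66), the uracil glycosylase gene *Ung* (−0.64), and the clamp loader genes *Rfc4* (−0.61) and *Rfc3* (−0.32) did not pass the test.

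Of the cyclin E genes, whose products activate CDK2 for entry into S phase, *Ccne2* was called lower. It was at 4.22, 4.28 and 4.48 FPKM in WT and at 2.67, 3.71 and 1.88 FPKM in *Esrra*-/- (−0.68 ± 0.24; limma, adjusted p = 0.39). The WT libraries lay close together and above every *Esrra*-/- library, and exons of *Ccne2* overlap *Ints8* on the opposite strand. *Ccne1* was at 3.08, 2.47 and 2.21 FPKM in WT and at 1.68, 2.40 and 1.64 FPKM in *Esrra*-/- (−0.43 ± 0.23; limma, adjusted p = 0.54), with overlap.

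Among the mitotic genes, the group that drives entry into mitosis had a median of −0.55, with 7 of 7 negative, 5 lower at the unadjusted p and 2 called lower. *Ccnb2*, a cyclin B, was at 16.7, 19.3 and 17.0 FPKM in WT and at 9.15, 14.2 and 10.0 FPKM in *Esrra*-/- (−0.69 ± 0.18; limma, adjusted p = 0.30). Its partner kinase *Cdk1* was at 15.5, 18.6 and 15.8 FPKM in WT and at 10.1, 13.7 and 8.77 FPKM in *Esrra*-/- (−0.63 ± 0.18; limma, adjusted p = 0.33). Neither gene overlapped between the genotypes, and both stayed under an unadjusted p of 0.05 in all 6 fits that left out 1 library, as did *Rrm2*, *Pbk*, *Bub1b*, *Cdc20*, *Birc5* and *Prc1*. *Ccnb2*, like *Pcna*, has annotated pseudogene copies that are not in the table and with which fragments could be shared.

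The cyclins *Ccna2* (−0.55) and *Ccnb1* (−0.50) and the transcription factor *Foxm1* (−0.55) were lower at the unadjusted p but under the fold threshold. *Cdca3*, which promotes degradation of the mitotic inhibitor WEE1 and was the most abundant gene of the group, was at 28.9, 46.6 and 28.7 FPKM in WT and at 17.3, 32.7 and 19.3 FPKM in *Esrra*-/- (−0.61 ± 0.29; limma, adjusted p = 0.51). WT replicate 2 stood well above the other WT libraries for this gene, and *Esrra*-/- replicate 2 exceeded both of them. The phosphatase gene *Cdc25c*, at −0.46, did not pass the test.

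Of 5 mitotic kinases, all had a negative log2 fold change and 2 were called lower. *Pbk*, a kinase made in dividing cells, was at 7.55, 10.5 and 8.17 FPKM in WT and at 4.75, 5.86 and 4.26 FPKM in *Esrra*-/-, and its groups stood clearly apart (−0.80 ± 0.18; limma, adjusted p = 0.26). *Melk* was at 4.94, 6.27 and 4.21 FPKM in WT and at 2.83, 4.24 and 2.63 FPKM in *Esrra*-/- (−0.67 ± 0.23; limma, adjusted p = 0.39), where *Esrra*-/- replicate 2 just exceeded WT replicate 3. *Plk1*, polo-like kinase, was at 16.2, 19.2 and 14.8 FPKM in WT and at 11.5, 15.4 and 9.56 FPKM in *Esrra*-/- (−0.48 ± 0.20; limma, adjusted p = 0.44). *Nek2* (−0.52) and *Aurka* (−0.31), which act at the centrosome, did not pass the test.

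The spindle checkpoint holds anaphase back until every chromosome is attached, by inhibiting CDC20 and the anaphase-promoting complex (APC). In this group 7 of 7 genes were negative, 4 were free of overlap and 2 were called lower. *Bub1b* was at 5.33, 6.05 and 5.19 FPKM in WT and at 3.47, 4.54 and 2.92 FPKM in *Esrra*-/- (−0.61 ± 0.18; limma, adjusted p = 0.34). *Mad2l1* was at 13.4, 19.2 and 14.8 FPKM in WT and at 8.56, 13.4 and 8.64 FPKM in *Esrra*-/- (−0.64 ± 0.22; limma, adjusted p = 0.39). For *Mad2l1* the highest *Esrra*-/- library and the lowest WT library were almost equal, at 13.37 and 13.40 FPKM.

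*Cdc20*, the activator that the checkpoint restrains, was at 12.4, 13.9 and 11.3 FPKM in WT and at 7.95, 10.0 and 8.71 FPKM in *Esrra*-/- (−0.49 ± 0.14; limma, adjusted p = 0.33). *Ube2c*, the ubiquitin-conjugating enzyme of the APC and the most abundant gene of the set, was at 59.3, 70.1 and 64.5 FPKM in WT and at 37.9, 54.6 and 44.8 FPKM in *Esrra*-/- (−0.51 ± 0.17; limma, adjusted p = 0.38). Both were free of overlap but under the fold threshold, and exons of both overlap a gene on the opposite strand (*Elovl1* and *Tnnc2*). The checkpoint kinases *Bub1* (−0.72) and *Ttk* (−0.54) varied too much between libraries to pass the test. *Bub3*, whose product also serves outside mitosis, differed least in the group, at −0.15 ± 0.12.

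Centromere and chromosome genes were negative in 8 of 8 cases, and 0 were called lower, because the 3 that passed the unadjusted p were under the fold threshold. *Birc5*, survivin, a subunit of the chromosomal passenger complex, was at 28.2, 35.8 and 32.2 FPKM in WT and at 20.3, 25.4 and 20.0 FPKM in *Esrra*-/- (−0.55 ± 0.15; limma, adjusted p = 0.33). *Aurkb*, the kinase of that complex, was at 7.90, 9.73 and 7.04 FPKM in WT and at 5.24, 6.80 and 4.63 FPKM in *Esrra*-/- (−0.56 ± 0.19; limma, adjusted p = 0.38). Both were free of overlap, as was the centromeric histone gene *Cenpa* at −0.53, whereas *Cdca8*, which encodes a further subunit of the complex, was at −0.25 with overlap.

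*Mki67*, the source of the Ki-67 proliferation antigen, was at 11.3, 13.9 and 5.84 FPKM in WT and at 6.09, 9.22 and 4.50 FPKM in *Esrra*-/- (−0.61 ± 0.37; limma, adjusted p = 0.58). WT replicate 3 was below *Esrra*-/- replicates 1 and 2, so the difference did not exceed the spread between libraries. *Top2a*, topoisomerase II alpha, was at −0.57 with an unadjusted limma p of 0.0504. The kinetochore genes *Cenpe* (−0.35 ± 0.36) and *Cenpf* (−0.23 ± 0.51) had wide errors, and *Cenpf*, with the largest standard error of the 58 genes, had its highest value, 4.35 FPKM, in *Esrra*-/- replicate 2 and its lowest, 1.09 FPKM, in *Esrra*-/- replicate 3.

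Spindle and cytokinesis genes held both directions. *Nusap1*, which binds spindle microtubules, was at 6.66, 11.1 and 6.89 FPKM in WT and at 4.76, 6.36 and 4.33 FPKM in *Esrra*-/- (−0.64 ± 0.24; limma, adjusted p = 0.41). Its exons overlap *Oip5* on the opposite strand, a mitotic gene that was itself called lower, so their fragments cannot be told apart with certainty. *Prc1*, which crosslinks the antiparallel microtubules of the central spindle, was the exception of the whole set, at 10.4, 11.1 and 9.12 FPKM in WT and at 19.0, 12.9 and 16.9 FPKM in *Esrra*-/-, with all *Esrra*-/- values above all WT values (0.66 ± 0.17; limma, adjusted p = 0.29). Its log2 fold change ran from 0.54 without *Esrra*-/- replicate 1, where the call was lost, to 0.81 without *Esrra*-/- replicate 2. The mouse annotation (GENCODE M1, mm9) lists 14 transcripts for *Prc1* and no other gene over its exons. The values are per gene, so its transcripts could not be told apart.

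The genes that act with *Prc1* in cytokinesis did not share its direction. *Kif23*, the motor of the centralspindlin complex, was at −0.37, *Kif20a* at −0.45, *Ect2*, the exchange factor that centralspindlin recruits, at −0.19, and the scaffold gene *Anln* at −0.41. None of these 4 passed the test. *Tpx2*, which activates Aurora A on the spindle, was at −0.57 and passed the unadjusted p, while the motor genes *Kif11* (−0.49) and *Kif2c* (−0.30) did not.

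**Figure D2:**
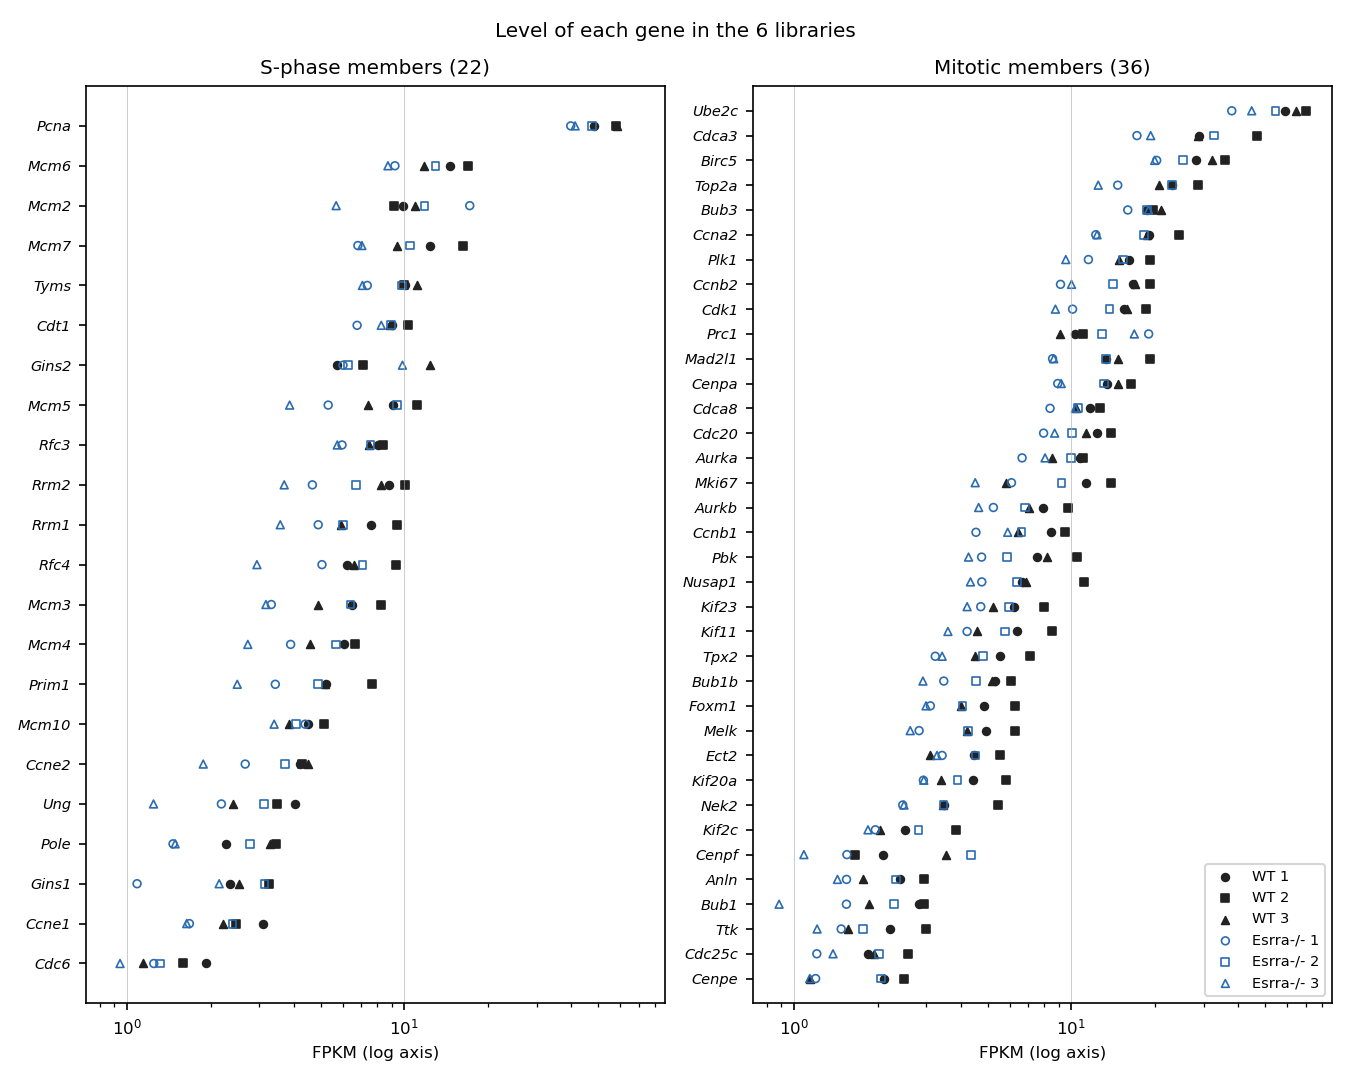
FPKM of each gene in the 6 libraries on a log axis, for the S-phase genes (left) and the mitotic genes (right), ordered by mean level. Filled black marks are WT libraries and open blue marks *Esrra*-/- libraries, with 1 shape per replicate number; all 3 open blue marks stand to the left of all 3 black marks for 17 of the 58 genes and to the right for *Prc1*, and the genotypes overlap for the rest.

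The median log2 fold change was −0.51 for the 22 S-phase genes (quartiles −0.64 and −0.36) and −0.52 for the 36 mitotic genes (quartiles −0.61 and −0.40), a difference of 0.02. Leaving out 1 library moved the S-phase median to between −0.78 (without *Esrra*-/- replicate 2) and −0.35 (without *Esrra*-/- replicate 3), and the mitotic median to between −0.68 (without *Esrra*-/- replicate 2) and −0.38 (without WT replicate 2). The summed FPKM of S-phase genes was 202 ± 17.9 in WT and 152 ± 27.3 in *Esrra*-/- (mean ± SD, n = 3), so that the *Esrra*-/- mean was 75.1% of the WT mean. For mitotic genes it was 430 ± 61.1 and 311 ± 59.3, or 72.4%. With all 6 libraries, 5 of 22 S-phase genes (22.7%) and 7 of 36 mitotic genes (19.4%) were called lower. Without WT replicate 3 these counts became 6 and 18, and without WT replicate 1 they became 3 and 11. They were 1 and 2 without WT replicate 2 and likewise without *Esrra*-/- replicate 3. Without *Esrra*-/- replicate 1 they were 1 and 3, and without *Esrra*-/- replicate 2 they were 13 and 23. The difference between the shares was not tested. With all 6 libraries, 8 of 22 (36.4%) and 17 of 36 (47.2%) were lower at the unadjusted p alone. Of these sets, 5 and 12 genes respectively were free of overlap.

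Within each library the S-phase and mitotic genes moved together. A gene's deviation was taken as its log2(FPKM + 0.1) minus its own mean over the 6 libraries. The median deviation of the S-phase genes was 0.24, 0.45 and 0.06 in the WT libraries and −0.33, 0.11 and −0.55 in the *Esrra*-/- libraries. That of the mitotic genes was 0.21, 0.53 and 0.07 in WT and −0.39, 0.07 and −0.46 in *Esrra*-/-. The S-phase median minus the mitotic median thus stayed between −0.09 and 0.06 in all 6 libraries, and the values of the genotypes overlapped (0.03, −0.08 and −0.01 in WT, 0.06, 0.04 and −0.09 in *Esrra*-/-). The S-phase median log2 fold change minus the mitotic one ranged from −0.10 to 0.08 when 1 library was left out, and its sign depended on which.

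The spread between mice of 1 genotype was large beside the difference between genotypes. The median deviation of the whole set ran from 0.07 to 0.50 in WT and from −0.46 to 0.09 in *Esrra*-/-. WT replicate 2 held the highest value for 47 of the 58 genes, and *Esrra*-/- replicates 3 and 1 held the lowest value for 35 and 20. *Esrra*-/- replicates 1 and 3 were both below all WT libraries for 49 genes. *Esrra*-/- replicate 2 was below WT replicates 1 and 2 for 45 genes but above WT replicate 3 for 38. For most of the set, therefore, the highest *Esrra*-/- library and the lowest WT library were not separated.

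The libraries without Y-linked transcripts gave the same direction as the others. Between WT replicate 3 and *Esrra*-/- replicate 3, 56 of 58 genes were lower in *Esrra*-/-, with medians of −0.63 for S-phase and −0.46 for mitotic genes and of 0.04 for all genes tested. Among the other 4 libraries 55 of 58 genes were lower, with medians of −0.44 and −0.52 and of 0.01 for all genes. In these 4 libraries alone 10 genes were called lower, against 3.24% of all genes tested, and *Prc1* no longer passed the fold threshold (0.55). Of the 12 genes called lower with all 6 libraries, 6 were still called.

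**Figure D3:**
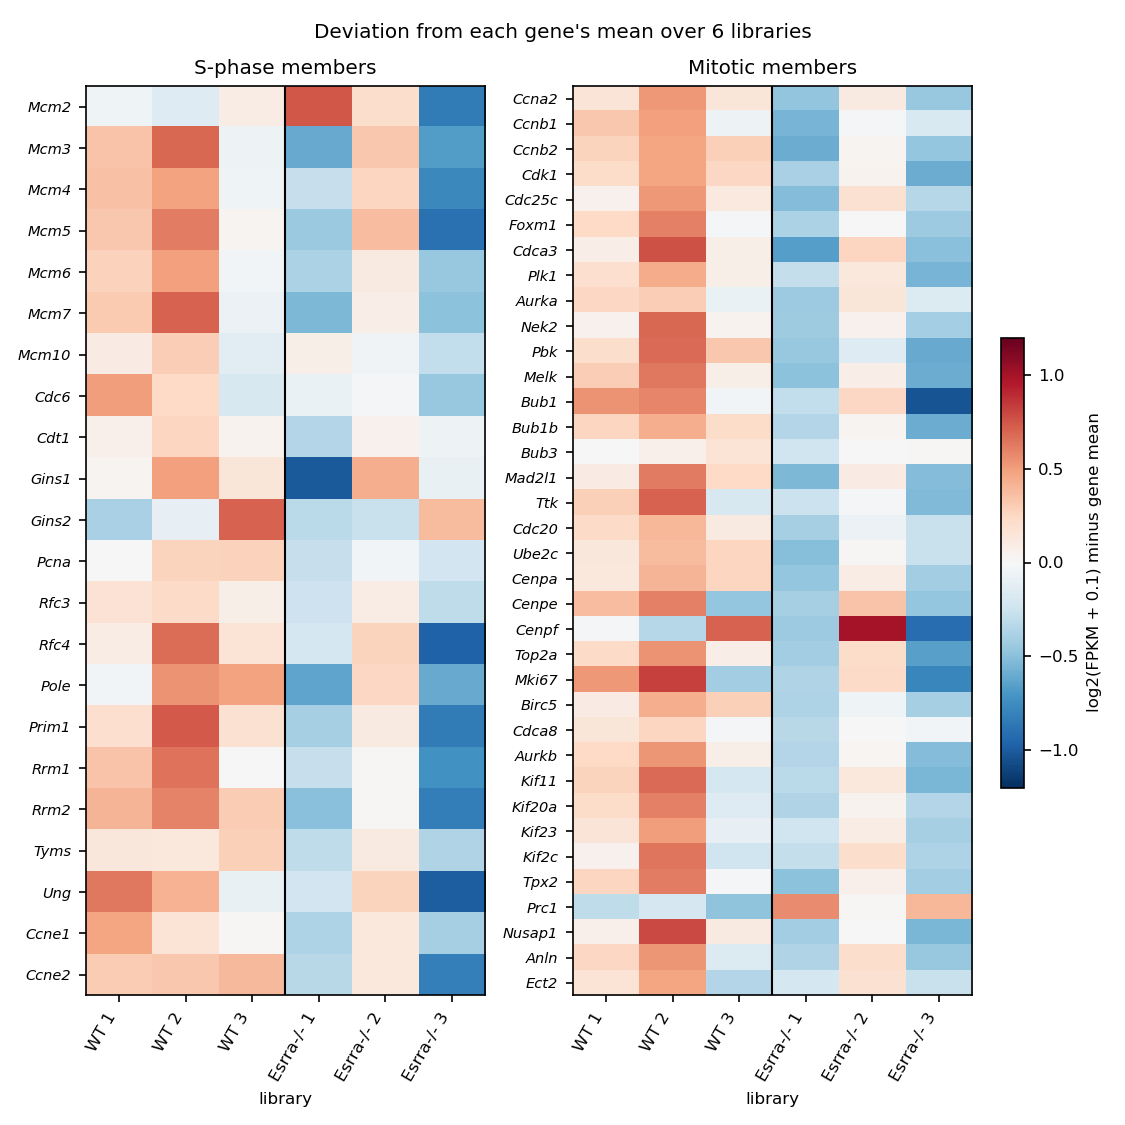
Deviation of each gene from its own mean over the 6 libraries, on log2(FPKM + 0.1), for S-phase genes (left) and mitotic genes (right); red is above the gene's mean, blue below, and the black line separates WT from *Esrra*-/-. WT replicate 2 holds the highest value for 47 of the 58 genes and *Esrra*-/- replicate 3 the lowest for 35, while *Esrra*-/- replicate 2 lies near the mean and *Prc1* shows the opposite colours.

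Most other genes of the same processes shifted in the same direction. Beside the counts in this and the following lists, 45.7% of all genes tested were negative, 3.28% called lower and 1.35% higher. At the unadjusted p alone, 6.49% of all genes tested were lower. Of 41 further replication genes tested, 36 had a negative log2 fold change (median −0.37) and 6 were called lower, among them *Tk1*, thymidine kinase, at 11.5, 14.6 and 15.6 FPKM in WT and at 7.59, 11.3 and 8.05 FPKM in *Esrra*-/- (−0.63 ± 0.19; limma, adjusted p = 0.34). *Gmnn*, geminin, which blocks a second round of licensing, was at −0.58 ± 0.15, just under the fold threshold, with an unadjusted limma p of 0.0054. *Slbp*, the histone mRNA binding protein and the most abundant of these genes, was at −0.42 ± 0.16. Leaving out 1 library changed the 6 to between 2 (without WT replicate 2, *Esrra*-/- replicate 1 or *Esrra*-/- replicate 3) and 13 (without *Esrra*-/- replicate 2), with 11 without WT replicate 3.

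Of 49 further mitotic genes tested, 48 were negative (median −0.53) and 16 were called lower, 0 higher. *Pttg1*, securin, which restrains separase until anaphase, was at 35.3, 35.4 and 60.9 FPKM in WT and at 20.5, 19.6 and 14.2 FPKM in *Esrra*-/- (−1.24 ± 0.25; limma, adjusted p = 0.22). Its difference was larger than that of any of the 58 genes, and the highest *Esrra*-/- value lay far below the lowest WT value. *Cks1b*, a small subunit that binds cyclin-dependent kinases, was at −0.64 ± 0.15 without overlap. The 16 became 5 without WT replicate 2 or *Esrra*-/- replicate 3, 9 without *Esrra*-/- replicate 1 and 13 without WT replicate 1. There were 20 without WT replicate 3 and 25 without *Esrra*-/- replicate 2.

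Among 24 regulators upstream of S phase, genes for G1 cyclins and their kinases, the Rb family, E2F factors and the MYBL2 complex, 17 were negative, the median was −0.11 and 0 were called in either direction by limma, with 2 lower at the unadjusted p under 0.05. Those were *E2f8* (−0.57 ± 0.17), a repressor of the E2F family that is itself made in S phase, and *Cdk4* (−0.48 ± 0.18). Without WT replicate 3, 4 of the 24 genes were called lower, with 3 without *Esrra*-/- replicate 2 and 1 without WT replicate 1.

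Of 17 CDK inhibitors and other arrest genes, 8 were negative, the median was 0.07 and 2 were called higher. *Cdkn1c*, which encodes p57, was at 2.48, 2.64 and 3.38 FPKM in WT and at 4.38, 4.90 and 6.46 FPKM in *Esrra*-/- (0.86 ± 0.20; limma, adjusted p = 0.27). *Cdkn2b*, which encodes p15, was at 47.3, 70.6 and 41.6 FPKM in WT and at 73.0, 90.2 and 75 FPKM in *Esrra*-/- (0.61 ± 0.22; limma, adjusted p = 0.39). Both were free of overlap, and 1 of the calls was lost without WT replicate 1 and without WT replicate 3. *Cdkn1a*, which encodes p21 and was the most abundant of these genes, was at 132, 157 and 190 FPKM in WT and at 121, 152 and 199 FPKM in *Esrra*-/- and did not differ beyond its spread (−0.04 ± 0.23).

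Markers of other epithelial cells were read beside the set. In bulk epithelium, fewer dividing cells and less RNA of these genes per cell cannot be told apart. Of 14 crypt stem cell markers tested, 13 were negative (median −0.56) and 2 were called lower, *Smoc2* (−0.84 ± 0.18) and *Cdca7* (−0.73 ± 0.20), and 6 were without *Esrra*-/- replicate 2. *Olfm4*, the most abundant of them, was at 167, 205 and 105 FPKM in WT and at 94.7, 149 and 36.1 FPKM in *Esrra*-/-, with overlap (−0.94 ± 0.51). The 16 crypt markers listed, untested ones included, summed to 175 to 305 FPKM in WT and 79.9 to 226 FPKM in *Esrra*-/-, lowest in *Esrra*-/- replicate 3.

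For Paneth cells, which do not divide and sit at the crypt base, 11 of 11 markers were negative, with a median of −1.48, and 5 were called lower. Their summed level ran from 11270 to 26520 FPKM in WT and from 2210 to 10930 FPKM in *Esrra*-/-. The extremes were again WT replicate 2 and *Esrra*-/- replicate 3. The 5 calls became 1 without WT replicate 1 or without *Esrra*-/- replicate 3, 2 without WT replicate 2 and 3 without *Esrra*-/- replicate 1. There were 7 calls without WT replicate 3 and 8 without *Esrra*-/- replicate 2. The defensin genes *Defa17* (−1.71 ± 0.54) and *Defa24* (−1.48 ± 0.57) share sequence with their paralogs and are uncertain as single genes.

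The markers of villus enterocytes, 3 of 20 negative, had a median of 0.17 and 0 calls in either direction with limma and 0 at an unadjusted p under 0.05. Their summed level was 54100 to 88220 FPKM in WT and 65180 to 91240 FPKM in *Esrra*-/-, highest in WT replicate 3 and *Esrra*-/- replicates 1 and 3, where the median deviation of the 58 genes was 0.07, −0.37 and −0.46. Without WT replicate 3, 1 of the 20 was called higher. The part of the crypt share of each preparation in the lower values was not tested.

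The lipid transport genes *Apoa4* (0.42 ± 0.35), *Apob* (0.33 ± 0.17) and *Mttp* (0.34 ± 0.20) did not pass the test.

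Of 10 enteroendocrine markers 9 were negative, with a median of −0.17, and *Neurog3* (−0.53 ± 0.33), *Gip* (−0.24 ± 0.24) and *Tac1* (−0.47 ± 0.31) did not pass the test. Of 9 pan-epithelial markers 5 were negative, with a median of 0.00, and *Vil1* (0.25 ± 0.25), *Krt8* (0.13 ± 0.24) and *Krt19* (−0.18 ± 0.23) did not pass. Of 10 goblet cell markers 6 were negative, with a median of −0.04. Among them *Spink4* was called lower (−0.78 ± 0.29; 0 were called when WT replicate 1 or 2 or *Esrra*-/- replicate 1 or 3 was left out), while *Agr2* (−0.34 ± 0.16) and *Zg16* (0.21 ± 0.24) did not pass. The 18 immune cell markers listed varied from 128 to 324 FPKM in sum. Of the 12 that were tested 4 were negative, with a median of 0.11, and *Gzma* (0.11 ± 0.36), *Gzmb* (0.46 ± 0.49) and *Cd8a* (0.25 ± 0.29) did not pass. The 10 pan-epithelial markers listed summed to 4036 to 5227 FPKM in WT and 4158 to 5729 FPKM in *Esrra*-/-. Of 11 mesenchymal markers 1 passed the filter on low values, *Vim* (−0.27 ± 0.31), with *Col1a1* at or below 0.23 FPKM in every library, and of 10 pancreatic acinar markers 1 passed, *Cela1* (0.25 ± 0.18), with *Cela2a* listed at 0 in all 6.

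**Figure D4:**
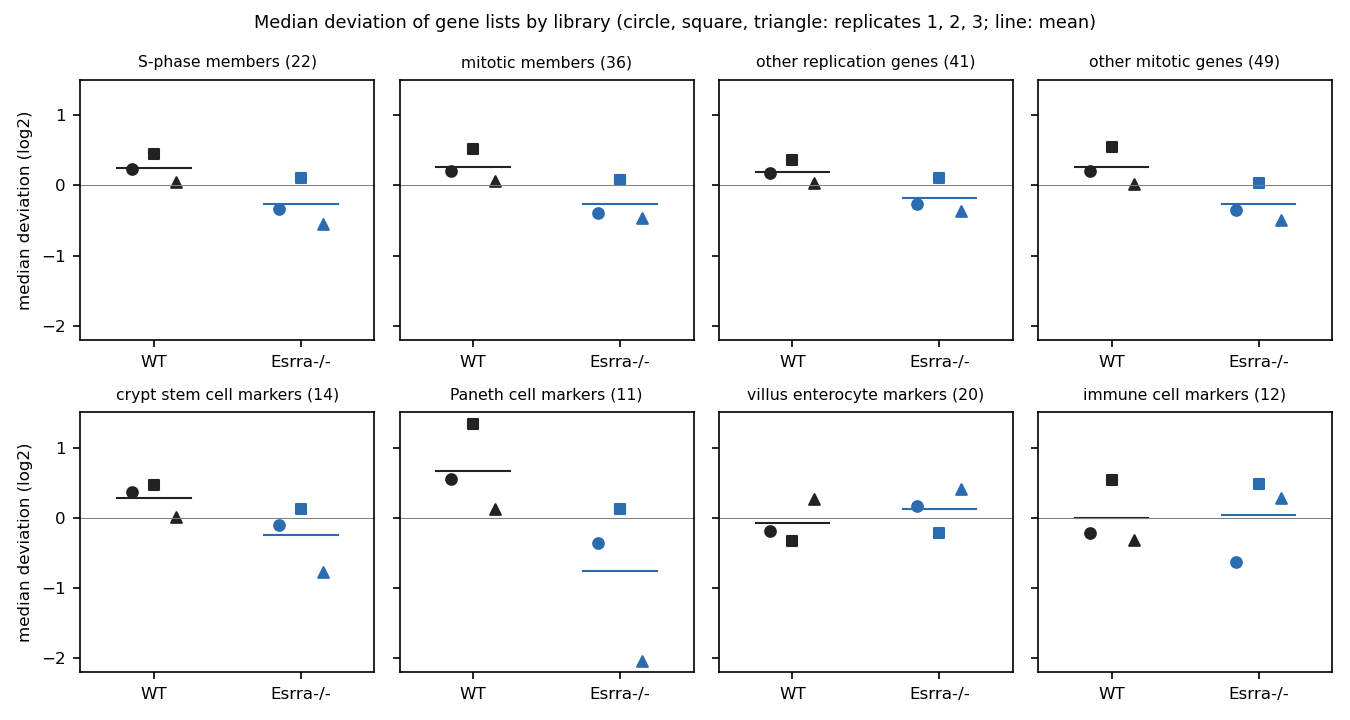
Median deviation from the gene's own mean, on log2(FPKM + 0.1), for 8 gene lists in each library, with the number of genes in brackets. Black marks are WT and blue marks *Esrra*-/- libraries, the shape gives the replicate number and the line the group mean; S-phase and mitotic genes order the libraries alike, the Paneth markers spread most widely (−2.04 in *Esrra*-/- replicate 3), and the villus markers are lowest in WT replicate 2 (−0.33) and highest in *Esrra*-/- replicate 3 (0.41).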

How the data were processed

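Duodenal epithelial RNA of 3 WT and 3 *Esrra*-/- mice was sequenced from paired-end libraries made with a TruSeq RNA v2 kit, which does not mark strand. Per the submitters' processing notes, the authors checked reads with FastQC 0.11.3, quantified them with kallisto 2.1.0 on mm9 and used DESeq2 2.2.1. The FPKM values deposited by the authors, 1 column per library, were used as given. The annotation used for quantification is not given in the sources used here. A second table holds the authors' own comparison (mean count, fold change, error, statistic and p-values) and was not used.

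The value log2(FPKM + 0.1) was tested where the mean FPKM exceeded 1 (10596 genes) with limma 3.58.1 in R 4.3.3 (lmFit and eBayes with a trend, no covariate) and adjusted by Benjamini-Hochberg across these genes. All 58 genes passed this filter. The added 0.1 shrinks the fold changes of low genes. A call needed an unadjusted p under 0.05 together with a difference of more than 0.58 in log2. The script was tested on simulated data. FPKM gives no depth; at FPKM below 0.2 the commonest ratio to WT replicate 1 was 0.976 to 1.21, a scaling and not a read number. Gene positions and exon overlaps (14 of the 58 genes) came from GENCODE M1 on mm9, and promoter windows from RefSeq on GRCm38.p6, scanned with Python 3.11.15. A promoter stretch was printed for called genes whose window starts at most 30 bases after any GENCODE M1 transcript start, the 3 of smallest p per phase at most, and the one called higher. Windows were not used for *Aurkb*, *Ccna2*, *Ccne2*, *Cdc25c*, *Foxm1*, *Gins1*, *Gins2*, *Kif20a*, *Mcm4*, *Pbk*, *Pole* and *Tpx2*.

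The genes and lists were chosen with earlier results of these data known. Per-library values were given for *Esrra*, *Mki67*, *Pcna*, the most abundant gene and the 2 of smallest p in each role, every gene with a positive fold change and every called gene; of each other list, the most abundant and the 2 of smallest p were named. *Mcm3*, *Mcm4*, *Mcm5*, *Gins2*, *Cenpf* and other single values outside that rule were named after they were seen. Lists other than the 58 genes were of further replication and mitotic genes, G1 regulators, CDK inhibitors, and markers of crypt stem, Paneth, villus, pan-epithelial, goblet, enteroendocrine, immune, mesenchymal and acinar cells, and 4 Y-linked genes.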

Additional observations from a re-analysis of the deposited data

How the results depend on the processing

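The medians of the S-phase and mitotic genes stayed negative under every alternative tried, at −0.78 to −0.35 and −0.68 to −0.38 when 1 library was left out. The counts of calls depended on the settings. Of the 12 genes called lower (5 S-phase and 7 mitotic), a pseudocount of 1 left 7 (3 and 4). A Benjamini-Hochberg adjusted p under 0.05 in limma left 0 (0 and 0, and 0 higher), and a fold threshold of 0.3 gave 25 (8 and 17). Of all genes tested, 2.37%, 0.0189% and 6.42% were called lower under these settings, in that order. With the presence of Y-linked transcripts as a covariate, 17 genes (8 S-phase and 9 mitotic) were called lower, against 3.9% of all genes tested. Without both libraries that lack Y-linked transcripts, an alternative chosen after seeing the data, 3 S-phase genes were called lower and 0 genes higher. In that fit 16 genes were lower at the unadjusted p, against 6.4% of all genes tested, and the S-phase median minus the mitotic median was 0.087. Leaving out each library in turn gave 3 to 36 genes called lower (1 to 13 S-phase and 2 to 23 mitotic) and 0 to 1 higher. It gave 7 to 42 lower at the unadjusted p, and −0.10 to 0.077 for the S-phase median minus the mitotic median. Of all genes tested, 2.38% to 5.05% were called lower in those fits and 3.92% to 7.42% were lower at the unadjusted p. *Mcm2* changed sign when *Esrra*-/- replicate 1 (−0.28) or replicate 2 (−0.0088) was omitted, and reached 0.51 when replicate 3 was. The causes were not tested. Unadjusted p-values measure the spread between 3 mice per group, and FPKM gives no counting error.

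The replicate numbers were not taken to pair the mice, since deviations from the group means correlated at 0.0116, 0.263 and 0.376 between same-numbered libraries and WT replicate 1 correlated best with *Esrra*-/- replicate 2 (0.182). With the replicate number as a block, 20 genes (10 S-phase) were called lower and 41 were lower at the unadjusted p. All 12 genes kept their call in that fit. Of all genes tested, 441 (4.16%) were called lower in it and 11.3% were lower at the unadjusted p, against 6.49% without the block.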
